A study of Bos taurus with 16 samples.

Results

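The myogenic regulatory factors MYOD1, MYF5, MYF6 and MYOG, the paired box factors PAX7 and PAX3, the MEF2 factors MEF2A, MEF2C and MEF2D, and MYMK, which encodes the fusion protein myomaker, were followed gene by gene in skeletal muscle of newborn calves. The rule names the 10 genes and uses no measured value, though it was set with earlier results of these data known, and they are genes that specify, activate and fuse muscle precursor cells. Of these, 9 matched 1 gene each among the 34109 listed genes. PAX7, the usual marker of satellite cells, was not matched through the gene table used here and was not analysed here.

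RNA was sequenced from the round muscle (hind limb) and the sirloin muscle (loin) of 8 male Hanwoo calves, a Korean beef breed of cattle, taken at birth before colostrum. The mothers of 4 control calves were fed 100% of their nutritional requirement, and the mothers of 4 treated calves were overfed at 150% from mid to late pregnancy. This gave 16 libraries in 4 groups of 4, round control, round treated, sirloin control and sirloin treated, and each calf gave 1 library of each muscle. All calves were of 1 breed and sex, and no transgene was used. The calves were euthanized with intravenous pentobarbital before the muscle was taken. A piece of whole muscle was the sample, so levels were averages over all cells in it.

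In the making of muscle, PAX3 and PAX7 mark precursor cells and the satellite cells that lie beside adult fibres as a reserve. MYF5 and MYOD1 commit these cells to the muscle lineage, and MYOG then drives their exit from the cell cycle and differentiation. MYF6, also known as MRF4, is the family member that stays high in grown fibres. MEF2 factors bind DNA together with these basic helix-loop-helix (bHLH) proteins at muscle genes, and myomaker lets the differentiating cells fuse. In fetal cattle most muscle fibres are laid down before birth, which is why the diet of the mother in this period is studied.

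Library depth was 44.5 to 72.4 M counts. Markers of muscle fibres summed to 29730 to 66320 TPM (the authors' level per transcript length) in all 16 libraries, over 6 genes. Of the satellite cell markers, CDH15, which encodes M-cadherin, lay between 19.97 and 53.2 TPM and the Notch target HEYL between 3.42 and 10.7 TPM, whereas CALCR, the calcitonin receptor of quiescent satellite cells, did not pass 0.357 TPM in any library and had no count in 2 of the 16. The calf control replicate 2 gave the deepest library of each muscle and stood apart, since its TPM summed to exactly 1000000 in both muscles and those of the other calves to 999756 to 999858, and its round library had a summed TPM of 1048 for the 3 fibroblast markers against 97.9 to 343 in the other 15. The sirloin library of treated replicate 4 had 838 TPM summed over the 2 adipocyte markers, PLIN1 and ADIPOQ, against 0.449 to 2.54 in the other 15. Values without these calves are given beside the results they moved most.

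Per transcript length, MYF6 was the most abundant of the 9 genes, with a median of 255 TPM (lowest 75.8, highest 750) over the 16 libraries. MEF2C followed at a median of 98.7 TPM, MEF2D at 48.0, MYOG at 27.2 and MEF2A at 21.7. MYOD1 had a median of 6.21 TPM, and MYF5 and MYMK lay near 1 with medians of 1.06 and 0.993. PAX3 had a median of 0 and reached 0.316 TPM. MYF6, the factor of grown fibres, was above MYOD1, MYF5 and PAX3 of the precursor cells in every library.

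The order was clear between some neighbours only. MYF6 was above MEF2C in 14 of 16 libraries, MEF2C above MEF2D in 15, MEF2D above MYOG in 13 and MYOD1 above MYF5 in 15, and MYMK was above PAX3 in all 16. MYOG was above MEF2A in 9 libraries, MEF2A above MYOD1 in 11 and MYF5 above MYMK in 7 of 16, so these neighbours changed places from library to library.

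**Figure D1:**
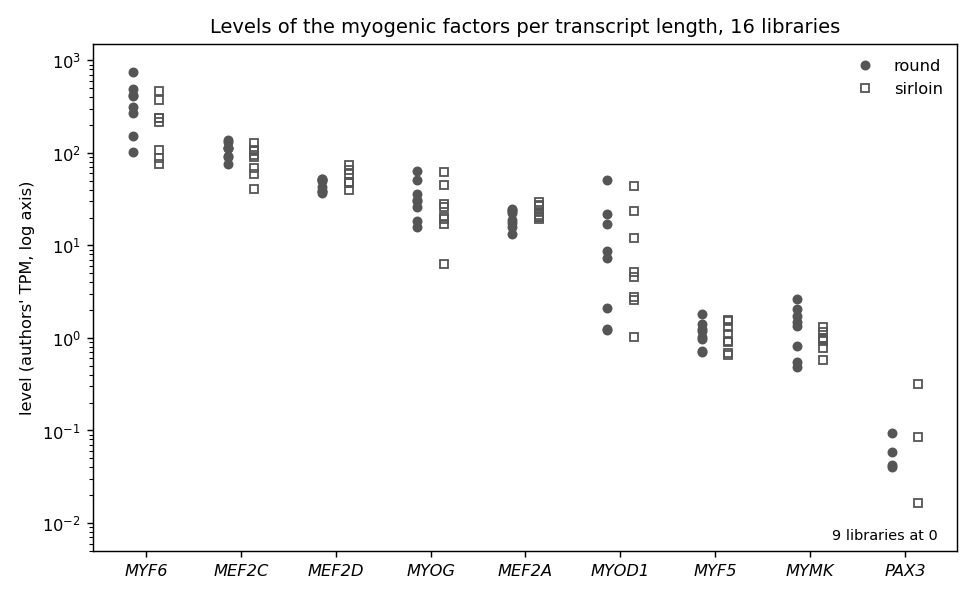
The authors' TPM (log axis) of the 9 genes, ordered by median, with 1 point per library, filled circles for the 8 round and open squares for the 8 sirloin libraries. MYF6 leads with a median of 255 TPM, MYOD1 spreads from 1.02 to 51.1 TPM, and PAX3 was at 0 in 9 libraries, which are not drawn.

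The first question was whether overfeeding of the mother shifted these genes in the calf. In neither muscle did any of the 9 genes differ between the diets by edgeR's quasi-likelihood test with Benjamini-Hochberg adjustment. In round muscle 0 of 9 passed, where 0.0185% of all 21677 genes did (4 genes), and in sirloin 0 of 9, where 0.00918% of 21776 did (2 genes). With the counts of both muscles of a calf added together, 0 of 9 passed against a background of 0.00437% (1 of 22877). At an unadjusted p under 0.05, 0 of the 9 passed in round, and PAX3 alone in sirloin and in the calf sums, against 4.41%, 3.91% and 3.85% of all genes. The same comparisons were run with DESeq2, by its own test and normalization. It called 45 genes in round (0.208%), 13 in sirloin (0.0597%) and 37 in the calf sums (0.162%), and none of the 9 was among them. For each gene the ranges of control and treated calves overlapped in both muscles. How many of all genes overlapped was not counted, so this is a description only.

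MYOD1, the gene that switches a precursor to the muscle lineage, varied more between calves than between diets. In round muscle its CPM (counts scaled to the library size with TMM factors) was 21.7, 52.8, 1.51 and 2.66 in control replicates 1 to 4 and 24.6, 7.35, 1.39 and 9.92 in treated replicates 1 to 4. In sirloin it was 15.04, 47.8, 2.98 and 5.09 in the control and 24.2, 2.74, 1.06 and 5.35 in the treated calves. Control replicate 2 was highest and treated replicate 3 lowest in both muscles, and high and low calves were found under both diets.

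The highest MYOD1 level was 38.0 times the lowest in round and 45.2 times in sirloin. The treated calves had a fitted 0.563 times the control level in round (95% interval 0.127 to 2.5) and 0.471 times in sirloin (0.105 to 2.11), with adjusted p of 0.940 and 0.906 by edgeR. On the log2 scale these were -0.83 (SE 0.984) and -1.09 (SE 0.982). Without control replicate 2 the values became 0.34 in round and 0.11 in sirloin, and no other single calf turned the sign in either muscle.

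MYF5, which acts beside MYOD1 in commitment, was low and even. It was between 1.09 and 2.43 CPM in control and between 0.856 and 1.68 CPM in treated round muscle, and between 0.815 and 1.84 CPM and between 0.759 and 1.46 CPM in sirloin. The diets overlapped throughout, with fitted changes of -0.41 (SE 0.423) in round and -0.37 (SE 0.393) in sirloin on the log2 scale.

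MYF6 was measured at 381, 74.95, 347 and 430.0 CPM in the control round libraries and at 122, 191, 589 and 249 CPM in the treated ones. In sirloin the control calves had 205, 58.1, 72.2 and 365 CPM and the treated calves 77.9, 258, 172 and 157 CPM. Control replicate 2, which had the most MYOD1, had the least MYF6 in both muscles. The fitted change with diet was -0.08 on the log2 scale in both muscles (SE 0.541 in round and 0.547 in sirloin), with intervals of 0.416 to 2.14 times and 0.411 to 2.19 times the control level. Its sign was not stable, since in round it was 0.17 without treated replicate 1 and in sirloin 0.57 without control replicate 4.

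MYOG, the gene of differentiation, read 35.3, 51.2, 24.5 and 17.9 CPM in the round muscle of control calves, and 44.6, 12.2, 27.1 and 27.2 CPM in that of treated calves. In sirloin the control calves showed 27.3, 53.0, 17.6 and 22.1 CPM, and the treated calves 35.6, 4.74, 13.7 and 16.4 CPM. In sirloin 3 of 4 treated calves lay below all controls, while treated replicate 1 was above 3 of them. The fitted change was -0.77 (SE 0.528) in sirloin and -0.19 (SE 0.403) in round, with edgeR adjusted p of 0.876 and 0.983. The round value was 0.10 without control replicate 2 and 0.05 without treated replicate 2. The sirloin value was -0.34 without control replicate 2 and -1.38 without treated replicate 1.

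PAX3 was at the edge of detection. In round muscle the control calves held 0, 0, 0 and 5 raw counts and the treated calves 0, 5, 6 and 9. In sirloin the control calves held 0, 0, 2 and 0 and the treated calves 8, 0, 0 and 39. Of the 74 counts in all, 39 came from the sirloin library of treated replicate 4, the library with the adipocyte markers, and their part in this value was not tested. Without that calf the control sirloin libraries held 2 counts and the treated ones 8. The unadjusted p was 0.0440 in sirloin, with means of 0.00832 ± 0.0166 CPM (SD, n = 4) in control and 0.182 ± 0.270 CPM in treated calves, and the adjusted p of edgeR was 0.876. No fold is given, since the control sirloin libraries held 2 counts together. The counts were too few to show whether the diets differed.

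MEF2A and MEF2D had the smallest SD over calves of the 9 genes, taken on the mean of both muscles. Control round libraries held MEF2A at 60.7, 77.3, 84.4 and 92.7 CPM, and treated ones at 45.0, 57.4, 58.8 and 77.2 CPM. Control sirloin libraries held it at 78.6, 87.8, 80.0 and 91.0 CPM, and treated ones at 60.0, 86.9, 62.1 and 63.2 CPM. In each muscle 3 of 4 treated calves were below all controls and 1 was within their range.

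Fitted MEF2A was 0.767 times the control level in round (95% interval 0.537 to 1.1) and 0.805 times in sirloin (0.603 to 1.07). With both muscles of a calf added, the log2 change was -0.38 (SE 0.180), with an unadjusted p of 0.0604 and an adjusted p of 0.933 by edgeR.

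MEF2C, the member of the family tied to fibre structure, spanned 375 to 446 CPM over the control and 284 to 499 CPM over the treated round libraries. The control sirloin libraries had 520, 387, 263 and 340 CPM, and the treated ones 351, 131, 301 and 201 CPM. The ranges overlapped in both muscles. The fitted change was -0.62 (SE 0.322) in sirloin and -0.04 (SE 0.241) in round, with edgeR adjusted p of 0.876 and 0.996.

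MEF2D ran between 138 and 181 CPM in all 8 round libraries, the narrowest range of the 9 there, and between 128 and 255 CPM in all 8 sirloin libraries. Its interval was also the narrowest in round muscle, at 0.778 to 1.46 times the control level, and it was 0.611 to 1.22 times in sirloin.

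MYMK, the fusion gene, gave 6.93, 2.42, 1.87 and 2.01 CPM in round muscle of the control calves and 3.68, 6.71, 4.73 and 4.64 CPM in that of the treated calves. Its sirloin levels were 3.44, 1.86, 2.13 and 2.56 CPM for the control and 2.78, 3.42, 3.05 and 3.11 CPM for the treated calves. All 4 treated calves lay above 3 of the 4 controls in each muscle, and control replicate 1 was the highest of all. The fitted change was 0.60 (SE 0.445) in round and 0.31 (SE 0.300) in sirloin, with edgeR adjusted p of 0.864 and 0.926. Without control replicate 1 these were 1.25 and 0.50.

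**Figure D2:**
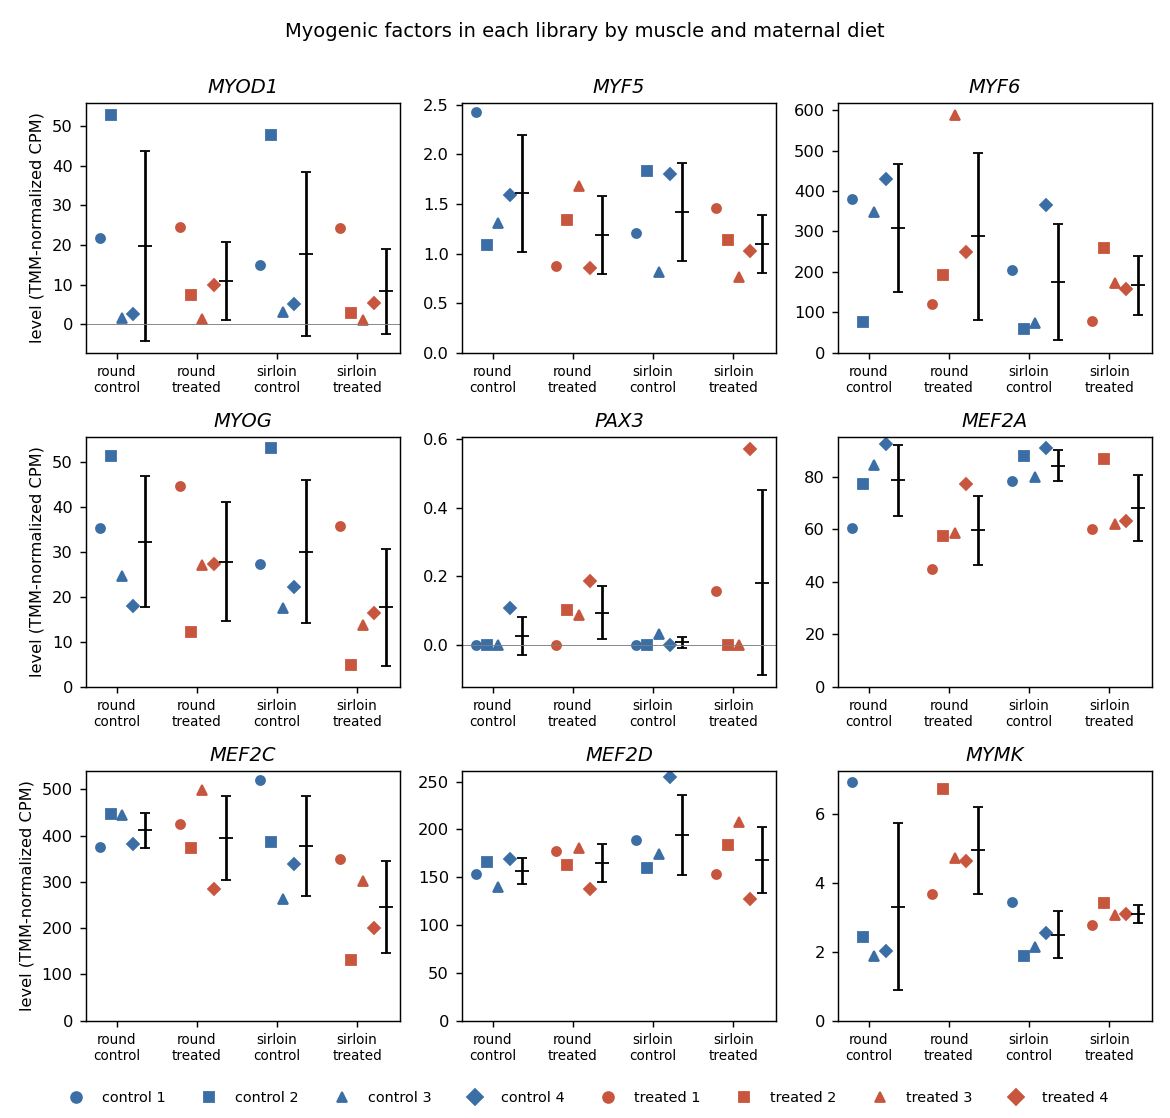
TMM-normalized CPM of the 9 genes in each library (linear axis, blue control, red treated, symbol by replicate number), with the mean and SD of each group in black. For every gene the points of the diets overlap in both muscles, and MYOD1 runs from 1.06 to 52.8 CPM.

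**Figure D3:**
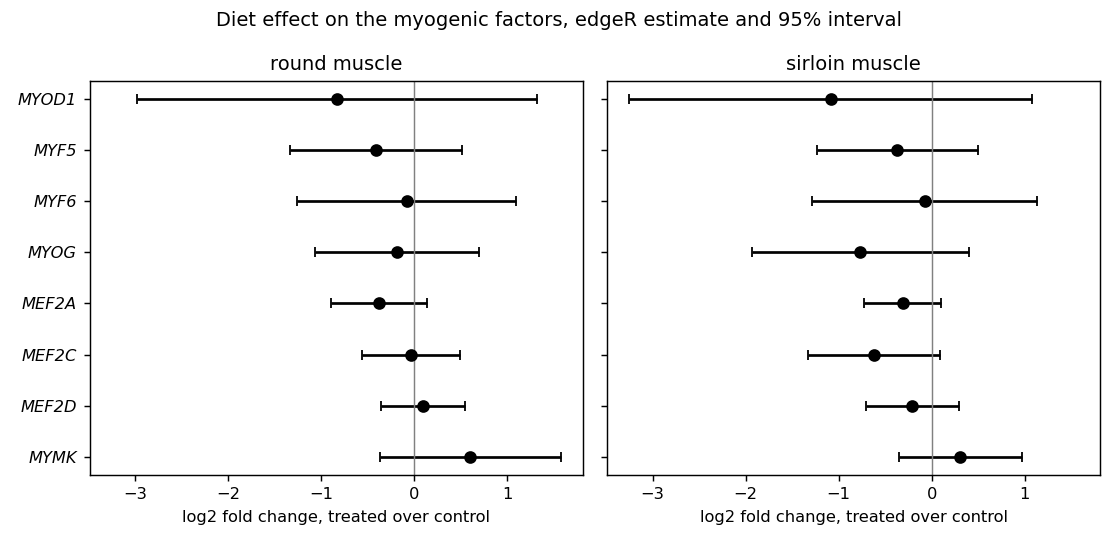
Log2 fold change of treated over control calves by edgeR with the 95% interval, in round and in sirloin muscle, for the 8 genes other than PAX3. All 16 intervals include 0, from the widest for MYOD1 to the narrowest for MEF2D in round and MEF2A in sirloin.

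The diet effect was then compared between the muscles. By edgeR's interaction test 0 of 9 genes differed, against 0% of 22877 genes (0 by DESeq2 also, and 637 at an unadjusted p under 0.05). The widest gap was that of PAX3, with few counts, followed by MEF2C at 0.56 (SE 0.401) and MYOG at 0.55 (SE 0.720), round effect less sirloin effect on the log2 scale. With the calf as a block, MYOD1 had 0.95 (SE 0.401, unadjusted p 0.0355) in place of 0.23 (SE 1.55), and MYOG had 0.72 (SE 0.264, unadjusted p 0.0185). They were the 2 of the 9 genes at an unadjusted p under 0.05. The share of all genes in this blocked fit is not given, so these 2 are a description only. Both adjusted p were 1.0 by edgeR.

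The muscles themselves were compared within calves. By the fit without calves, 0 of 9 genes differed between round and sirloin, against 0.0612% of 22877 genes (14 genes), and 0 of 9 at an unadjusted p under 0.05, against 6.33%. DESeq2 called 84 genes (0.367%) and none of the 9. With the calf as a block the count for all genes was 109 (0.476%), and still 0 of the 9. At an unadjusted p under 0.05 the blocked fit gave 4 of the 9, MYF6, MYOG, MEF2C and MYMK, each with more in round, against 11.2% of all genes.

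MYF6 was higher in round in 7 of 8 calves, with a log2 difference of 0.79 (SE 0.253) and an edgeR adjusted p of 0.217 with the block. MYOG was higher in round in 6 of 8 calves, by 0.48 (SE 0.132, adjusted p 0.143). MEF2C was higher in 7 of 8 by 0.46 (SE 0.161, adjusted p 0.274), and MYMK in 6 of 8 by 0.44 (SE 0.171, adjusted p 0.344). In all 4 treated calves MYOG, MEF2C and MYMK were higher in round, and in the control calves this held for 2, 3 and 2 of 4.

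**Figure D4:**
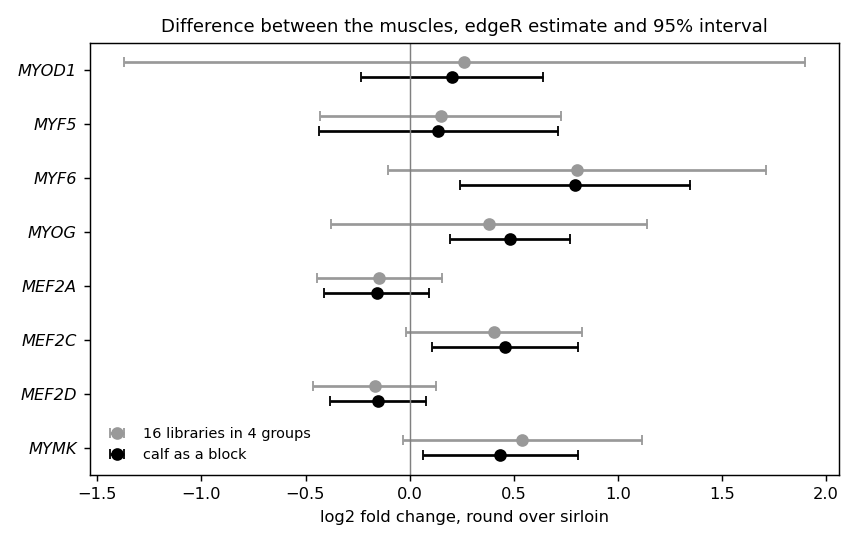
Log2 fold change of round over sirloin by edgeR with the 95% interval, without (grey) and with (black) the calf as a block. With the block the intervals of MYF6, MYOG, MEF2C and MYMK lie above 0, before adjustment over all genes.

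A calf's level in the round muscle was next set against its level in the sirloin. MYOD1 was related between the muscles, with Pearson's r of 0.907 over 8 calves (exact permutation p = 0.00293, adjusted over 9 genes 0.0121) and Spearman's rho of 0.929 (exact permutation p = 0.00223). MYOG gave r of 0.889 (exact permutation p = 0.0036, adjusted 0.0121) with rho of 0.786 (exact permutation p = 0.0279, adjusted 0.0838), and MYMK r of 0.879 (exact permutation p = 0.00404, adjusted 0.0121) with rho of 0.905 (exact permutation p = 0.00456). The other 6 genes had r from -0.15 for MYF5 to 0.612 for MYF6, with adjusted exact permutation p of at least 0.242. Over 11899 genes with a mean of at least 1 TPM the median r was 0.592, so that a relation between the muscles of a calf was common.

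Of all these genes, 4.71% had an r as high as that of MYOD1. Without the 2 calves farthest from each gene's median in round, r was 0.797 for MYOD1 (exact permutation p = 0.0681), 0.595 for MYOG (exact permutation p = 0.217) and 0.951 for MYMK (exact permutation p = 0.00417). The relation of MYOG missed the threshold without control replicate 2 and treated replicate 2, and that of MYOD1 without control replicate 2 and treated replicate 3. Fewer calves over a narrower range tend to lower r, so this cannot show that either relation rested on those calves. Without control replicate 2 alone, r was 0.856 for MYOD1 (adjusted exact permutation p = 0.0508), 0.842 for MYOG (0.0594) and 0.961 for MYMK (0.00536). On the log2(TPM + 0.1) scale MYMK had r of 0.74 with an adjusted exact permutation p of 0.0852.

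The control calves split into a high and a low pair for MYOD1, replicates 1 and 2 against 3 and 4, and the same split stood in both muscles. The SD of MYOD1 over all 8 calves, as the mean of both muscles on the log2 CPM scale, was 1.83, and 0.622% of the 11899 genes had a larger one (median 0.368). MYF6 had an SD of 0.875 and MYOG of 0.835, while MEF2D had 0.195 and MEF2A 0.264.

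**Figure D5:**
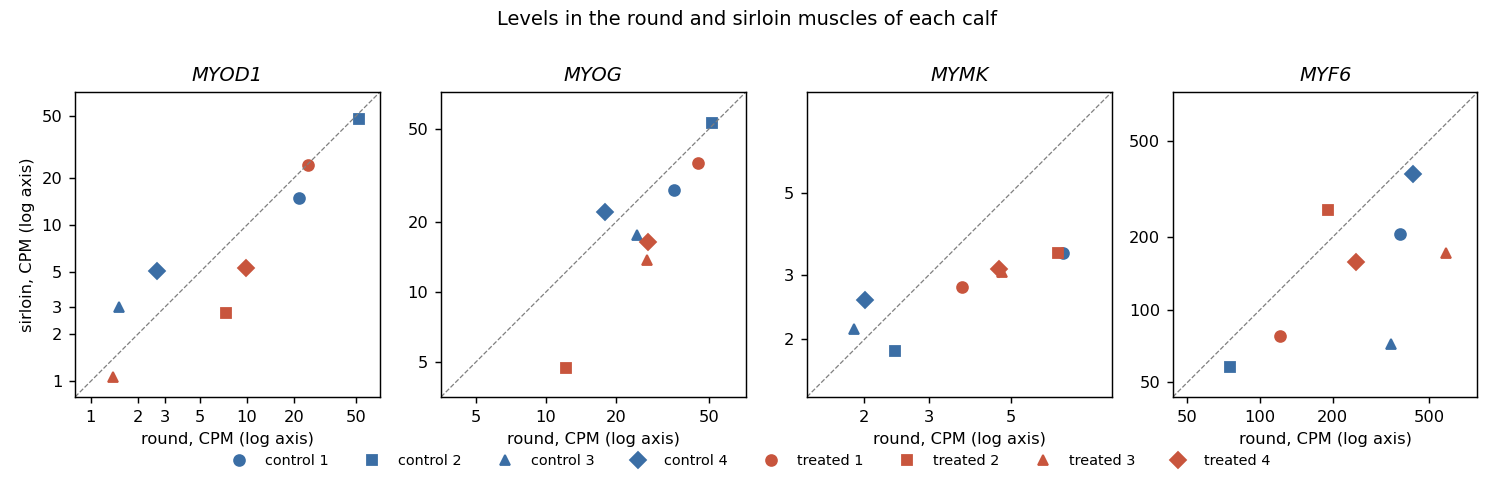
TMM-normalized CPM of MYOD1, MYOG, MYMK and MYF6 in round (x, log axis) against sirloin (y, log axis), 1 point per calf, blue control and red treated, with the line of equal levels dashed. Calves high in MYOD1 in one muscle tend to be high in the other (r 0.907 over 8 calves), with treated replicate 2 placed higher among the calves in round than in sirloin, and most points of MYF6 lie below the line.

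Among the 9 genes the relations over calves were looked at after the data had been seen. Of 36 pairs, 0 passed an exact permutation test with adjustment over the pairs, and the smallest adjusted p was 0.532. MYOD1 and MYOG had r of 0.695 and rho of 0.833 over 8 calves (exact permutation p = 0.0487 and 0.0154), and MYOD1 and MYF6 had r of -0.696 (exact permutation p = 0.0567). Without the 2 calves farthest from the median in MYOD1, these were 0.625 and -0.346.

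The genes whose levels followed each factor most closely over the 16 libraries, after the 4 group means were removed, are given as a description among 11899 genes. For MYOD1 they were BORCS5 (r 0.966), EML1 (0.95) and MVB12A (0.948), and for MYOG PYM1 (0.939), GNG5 (0.937) and ASF1B (0.935), where the muscles of a calf are not independent points. MYF6 was followed by LOC101902346 (0.916), LOC112447599 (0.913) and ERLIN1 (0.907), and MYMK by RCBTB2 (0.927), DHRS12 (0.914) and ENTREP1 (0.912). MEF2A was followed by OSGIN2 (0.9), GALNT1 (0.882) and HSPA14 (0.881), MEF2C by OGDH (0.93), the unnamed gene ID 112446406 (0.905) and HILPDA (0.863), and MEF2D by SYVN1 (0.915), POM121C (0.87) and TMEM214 (0.861). PAX3 was followed by ROM1 (0.899), NDFIP1 (0.891) and C21H14orf28 (0.879), on few counts, and MYF5 by TAGLN3 (0.773), LOC613358 (0.768) and KEH36_t13 (0.728), the lowest values of the 9.

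Other genes of the pathway were read from lists drawn up by role. Of 15 satellite cell genes, 0 passed in either muscle and the median log2 change with diet was -0.10 in round and -0.03 in sirloin, against 0.02 and 0.03 over all genes. HEYL had a log2 change of -0.47 (SE 0.268) in round and -0.76 (SE 0.305, unadjusted p 0.0295, edgeR adjusted p 0.876) in sirloin, and CALCR of -1.60 (SE 0.944) and -1.37 (SE 1.06). CDH15 had -0.15 (SE 0.230) and 0.03 (SE 0.306), and SPRY1, a gene of satellite cell quiescence, had 0.03 (SE 0.225) and 0.29 (SE 0.247). VCAM1 and MET were named after their values were seen. VCAM1, an adhesion protein of satellite cells and of endothelium, had the largest change of the list in round, at 1.86 (SE 0.826, unadjusted p 0.0445). In sirloin it had 1.29 (SE 0.559, unadjusted p 0.0420), where the fitted change of CALCR was larger in size. MET, the receptor of hepatocyte growth factor, had -0.90 (SE 0.374, unadjusted p 0.0327) in round and -0.60 (SE 0.319) in sirloin. With edgeR the adjusted p of VCAM1 and MET was 0.864 in round and 0.876 in sirloin. At an unadjusted p under 0.05 there were 2 of 15 in each muscle, where the share of all genes was 4.41% in round and 3.91% in sirloin.

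The list of partners and inhibitors of the bHLH factors held 13 genes, of which 0 passed in either muscle. In round muscle 10 of 13 had a negative fitted log2 change with diet, with a median of -0.64, and 4 had an unadjusted p under 0.05 (4.41% of all genes). Without control replicate 2, whose round library held the most fibroblast marker RNA, 9 of 13 were negative with a median of -0.54, and 1 had an unadjusted p under 0.05 (5.38% of all genes). In sirloin 5 of 13 were negative, with a median of 0.11, and 0 had an unadjusted p under 0.05 (3.91% of all genes). Without treated replicate 4, whose sirloin library held the adipocyte markers, 11 of 13 were negative there with a median of -0.45, and 2 had an unadjusted p under 0.05 (3.14% of all genes). The sirloin values of ID4, ID2 and TWIST1 turned from 0.84, 0.23 and 0.11 to -0.38, -0.45 and -0.97 without that calf, and the part of these other cells was not tested. The inhibitor ID1 averaged 21.9 ± 9.98 CPM over the control and 10.5 ± 5.83 CPM over the treated round libraries (SD, n = 4), a log2 change of -1.04 (SE 0.432) with an unadjusted p of 0.0331 and an edgeR adjusted p of 0.864. In sirloin ID1 had -0.25 (SE 0.543), and -1.02 (SE 0.436) without treated replicate 4. ID3 had -0.64 (SE 0.293) in round and -0.39 (SE 0.280) in sirloin, and ID2 had -0.60 (SE 0.306) in round and 0.23 (SE 0.442) in sirloin. The partner TCF12 had 0.26 (SE 0.297) in round and -0.22 (SE 0.207) in sirloin.

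Of 14 MEF2 regulators and upstream factors, 0 passed between diets, with medians of 0.07 in round and -0.20 in sirloin. VGLL2, a cofactor of muscle transcription, averaged 241 ± 211 CPM over the control and 53.4 ± 22.8 CPM over the treated sirloin libraries (SD, n = 4), a log2 change of -2.17 (SE 0.692, unadjusted p 0.00966, edgeR adjusted p 0.876), with controls from 37.1 to 447 CPM. SIX4, a homeobox factor upstream of the myogenic genes, had 0.52 (SE 0.303) in round and -0.15 (SE 0.298) in sirloin, and the MEF2 repressor HDAC4 had -0.31 (SE 0.288) and 0.09 (SE 0.607). EYA4, a transcriptional cofactor named after its values were seen, had -1.10 (SE 0.388, unadjusted p 0.0155) in round and -0.58 (SE 0.198, unadjusted p 0.0132) in sirloin, with edgeR adjusted p of 0.864 and 0.876. In sirloin its treated libraries lay between 63.6 and 81.3 CPM and its control libraries between 85.6 and 131 CPM, and in round the diets overlapped. The share of all genes without overlap was not counted, so these ranges are a description only. At an unadjusted p under 0.05 there were 1 of 14 in round and 2 of 14 in sirloin, beside the 4.41% and 3.91% of all genes.

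LBX1, a homeobox factor of the precursors that migrate into the limb, was the one gene of this list to pass between the muscles with the calf as a block. Its round level averaged 4.89 ± 1.81 CPM over control and 5.60 ± 2.34 CPM over treated calves, and its sirloin level 1.79 ± 1.05 and 1.30 ± 1.05 CPM (SD, n = 4). The log2 difference was 1.95 (SE 0.235, edgeR adjusted p 0.00463) with the block and 1.78 (SE 0.384, adjusted p 0.145) without it. ACTA2, the smooth muscle actin counted among the markers of other cells, was also higher in round with the block, by 0.69 (SE 0.130, edgeR adjusted p 0.0438), against an adjusted p of 0.718 without it. The summed TPM of ACTA2 and MYH11 ran from 27.3 to 103 in round and from 17.4 to 47.3 in sirloin libraries, and their part in the muscle values of MYF6, MYOG, MEF2C and MYMK was not tested.

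The fusion and differentiation targets held 14 genes, of which 0 passed in either muscle, with medians of 0.15 in round and 0.33 in sirloin. Without control replicate 2 the medians were 0.00725 in round and 0.05 in sirloin. Without treated replicate 4 they were -0.08 and 0.08. MYMX, whose peptide myomixer works with myomaker in fusion, had a log2 change with diet of 0.62 (SE 0.566) in round and 0.55 (SE 0.531) in sirloin, beside the 0.60 and 0.31 of MYMK. CHRNG and CHRNA1, subunits of the acetylcholine receptor, had 0.44 (SE 0.577) and 0.82 (SE 0.432) in round, and 0.37 (SE 0.600) and -0.09 (SE 0.361) in sirloin. ACTC1, the cardiac actin also used in fetal muscle and named after its values were seen, had -1.44 (SE 0.619, unadjusted p 0.0392, edgeR adjusted p 0.864) in round, the one gene of the list under 0.05 unadjusted (4.41% of all genes), and 0.41 (SE 1.10) in sirloin. The developmental myosin genes MYH3, MYH8 and MYL4 had -0.21 (SE 0.431), -0.04 (SE 0.348) and 0.45 (SE 0.459) in round muscle, and -0.01 (SE 0.306), -0.23 (SE 0.224) and 0.58 (SE 0.532) in sirloin. Of 6 fibre markers and 16 markers of other cells, 0 passed between the diets in either muscle. In sirloin all 6 fibre markers had a negative fitted change, with a median of -0.36 against 0.03 over all genes and 1 at an unadjusted p under 0.05, MB, or myoglobin, at -1.05 (SE 0.408, edgeR adjusted p 0.876). These stood beside the sirloin values of MYOG and MEF2C, and their part in them was not tested. In round 4 of the 6 were positive, with a median of 0.13 and a highest value of 1.15, and 1 had an unadjusted p under 0.05. MYH7 averaged 7734 ± 1686 CPM over the control and 16900 ± 14500 CPM over the treated round libraries (SD, n = 4). Of all genes, 4.41% in round and 3.91% in sirloin had an unadjusted p under 0.05. Between the muscles 0 of the 14 targets passed in either fit. Without the block 9 of the 14 had a negative log2 difference, round over sirloin, with a median of -0.11. MYMX and MYL4 were among the 5 positive ones, at 1.02 (SE 0.357) and 0.92 (SE 0.326). The satellite cell genes and the bHLH list also had 0 calls between the muscles, with medians of 0.26 and 0.09.

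Because whole muscle was sequenced, fewer cells of a type and less RNA per cell cannot be told apart for any of these genes. The p-values of the diet tests in each muscle and in the calf sums rest on the spread between the calves of this trial. Those with the calf as a block rest on differences within calves. The muscle and interaction fits without the block took both libraries of a calf as independent.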

How the data were processed

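RNA was measured in 16 libraries, 4 per muscle and diet. The authors deposited whole-number read counts for 34109 genes, without normalization, and normalized values that sum to 999756 to 1000000 per library and were used as the authors' TPM. The paper's methods name HISAT2, Bowtie2 and StringTie, and the submitters' processing notes name STAR, featureCounts and build ARS-UCD1.2. The paper describes depletion of rRNA and globin transcripts, and the labels poly(A) selection. Deposited tables of the authors' fold changes and p-values were not used.

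Gene IDs were named through a RefSeq table of another build (names only), with 90.2% matched. The myogenic genes and the lists were chosen with earlier results of these data known. The named genes were all members, 18 list genes, any list gene past the threshold, and the closest genes to each member by r. Among the genes covered by this rule, 1 list gene is not reported here.

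Genes with at least 1 count in any library of a comparison were tested with edgeR 4.0.16 (TMM, glmQLFit, glmQLFTest, two-sided, Benjamini-Hochberg, threshold 0.05) in R 4.3.3. The SE was the log2 fold change divided by the square root of F. Correlations took log2 CPM (prior count 2) and two-sided exact permutation tests (scipy 1.17.1). Round and sirloin libraries that share a number in the labels were taken to come from the same calf, and correlated at 0.322 to 0.769 after group means were removed. Scripts were tested on simulated data. Alternatives were DESeq2 1.42.0, limma-voom 3.58.1, RLE factors, filterByExpr, all 16 libraries in a fit, blocks, log2(TPM + 0.1) and leaving out each calf.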

Additional observations from a re-analysis of the deposited data

Results flagged for a closer look

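Of 36 groups of 4 libraries looked at for the 9 genes, 4 had a library far from the other 3, where chance gives about 1 in 20 groups. PAX3 in round control replicate 4 was at 0.109 CPM and in sirloin control replicate 3 at 0.0333 CPM, with the other 3 libraries of each group at 0. Such a group is flagged whatever the size of the count, so the rate of 1 in 20 does not apply to PAX3. MEF2A in sirloin treated replicate 2 was at 86.9 CPM, above the 60.0 to 63.2 CPM of the other 3. MYMK in round control replicate 1 was at 6.93 CPM, above the 1.87 to 2.42 CPM of the other 3.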

How the results depend on the processing

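No member passed the threshold in any alternative. Of 598 alternative values of members, 562 kept their direction, and the smallest adjusted p was 0.786 over the diet fits and 0.143 over all. The number of all genes called was 45, 13, 37 and 84 by DESeq2 in round, sirloin, calf sums and between muscles, against 4, 2, 1 and 14. By limma-voom it was 1, 0 and 0 for the 3 diet comparisons. The replicate block gave 2, 0 and 0 there, where the numbers do not pair calves across diets (correlations of -0.29 to 0.293), and the block by calf gave 109 between muscles and 1 for the interaction. With a calf left out, it was 0 to 3 in round, 0 to 1 in sirloin and 0 to 2 in calf sums.

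MYF6 turned positive by limma-voom in sirloin (0.21) and calf sums (0.071) and with the replicate block (0.18 and 0.051). With a calf left out, log2 changes that turned ranged in round from -1.65 to 0.34 for MYOD1, -0.72 to 0.17 for MYF6, -0.53 to 0.10 for MYOG and -0.18 to 0.066 for MEF2C. In sirloin they ranged from -2.56 to 0.11 for MYOD1 and -0.37 to 0.57 for MYF6, and in calf sums from -2.07 to 0.22 for MYOD1, -0.45 to 0.32 for MYF6 and -0.18 to 0.0098 for MEF2D. Between muscles they ranged from -0.027 to 0.30 for MYF5 and -1.79 to 1.57 for PAX3, and for the interaction from -0.40 to 0.28 for MYF5, -0.62 to 0.42 for MYF6, -5.00 to 1.67 for PAX3 and -0.30 to 0.064 for MEF2A. The causes were not tested, and fitted values of PAX3 depend on the prior count.

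Across the muscles of a calf, r without the 2 farthest calves was 0.797 for MYOD1, 0.595 for MYOG, -0.0268 for MYF6 and -0.44 for PAX3. On the TPM scale r of MYMK was 0.74. Chosen after seeing the data, r without control replicate 2 or treated replicate 4 was 0.856 and 0.917 for MYOD1, 0.842 and 0.893 for MYOG and 0.166 and -0.485 for PAX3. PAX3 had at most 39 counts per library, too few to show whether the diets differed in it. The lists without control replicate 2 or treated replicate 4 were also chosen after seeing the data.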
